A study of Homo sapiens with 3 samples.

Results

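The 8 genes described here encode enzymes that make, break down or interconvert arginine, proline, asparagine and glutamate in Jurkat cells, an established human T-lineage acute lymphoblastic leukaemia line: ASS1, ASL, ARG2, OAT, ALDH18A1, PYCR1, ASNS and GLUD1. They were chosen by pathway from a table of 17329 genes, with earlier results of these data known. ASS1 was also selected on its measured value, the lowest ratio of oxamate to control among well-measured genes. The oxamate to control values below are therefore a description. All 8 were found by symbol, and all 8 had a mean of at least 50 normalized counts over the 3 libraries. The control culture grew for 48 hours in standard medium. For the same time, 50 mM sodium oxamate, which inhibits lactate dehydrogenase, was present in the oxamate culture, and the oxamate+lactate culture had this and 10 mM L-sodium lactate. Polyadenylated RNA of each culture gave 1 library, so no difference has a replicate check, no test was possible and "higher" and "lower" compare libraries. All 3 cultures are of this 1 line. The study asked how lactylation of histone H3, a mark fed by lactate, bears on transcription, and the RNA values hold no measure of lactate or of the mark.

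ASS1 (argininosuccinate synthase) joins citrulline to aspartate, and ASL (argininosuccinate lyase) splits the product into arginine and fumarate, so that cells with both can make arginine from citrulline. ARG2, the mitochondrial arginase, turns arginine into ornithine, which OAT (ornithine aminotransferase) links to pyrroline-5-carboxylate, the precursor of proline. ALDH18A1 makes the same precursor from glutamate and PYCR1 reduces it to proline. ASNS moves the amide nitrogen of glutamine onto aspartate to give asparagine, and GLUD1 converts between glutamate and 2-oxoglutarate. Several of these genes are known targets of ATF4, a transcription factor that acts through amino acid response elements when amino acids are short, and asparagine supply is the target of asparaginase, a drug used in this leukaemia.

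ASS1 and ASNS are the members whose values differed most between the libraries, and their promoters are shown with that of ALDH18A1, whose value hardly differed. Sequences are from RefSeq on GRCh38.p14, which is not the build of the deposited values, and run 5′ to 3′ on the gene's strand. Windows of the 250 bases before a start site were found for 7 of the 8 members, with 2 start sites each for ASS1 and ASNS and 9 windows in all. Capitals mark matches, on either strand, to TGATGNAA (the core of the amino acid response element), CACGTG (an E-box, which reads the same on both strands) or GGGCGG (a GC box). For ASNS, 30 bases around the response element are given (chr7:97872458-97872487, minus strand). The ASS1 stretch is chr9:130444711-130444928 (plus strand), before the downstream start, and that of ALDH18A1 is chr10:95656712-95656961 (minus strand).
ASNS: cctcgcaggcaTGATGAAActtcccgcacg
ASS1: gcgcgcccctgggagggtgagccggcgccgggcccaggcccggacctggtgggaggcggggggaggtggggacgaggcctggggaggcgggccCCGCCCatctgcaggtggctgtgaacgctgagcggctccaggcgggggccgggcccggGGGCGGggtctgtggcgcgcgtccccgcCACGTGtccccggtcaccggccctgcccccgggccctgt
ALDH18A1: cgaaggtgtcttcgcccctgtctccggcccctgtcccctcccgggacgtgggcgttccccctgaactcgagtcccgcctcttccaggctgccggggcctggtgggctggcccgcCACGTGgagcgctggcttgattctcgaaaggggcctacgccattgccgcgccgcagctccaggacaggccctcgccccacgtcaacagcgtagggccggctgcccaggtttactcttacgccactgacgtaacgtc

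The response element core was found in 1 of the 9 windows, at position -68 from the upstream ASNS start. It occurs in 3.14% of all 35116 RefSeq windows of the same length. The E-box was found at -71 from the downstream ASS1 start and at -136 in ALDH18A1, and is in 6.34% of all windows. The GC box was present in 8 of the 9 windows, all but that of ALDH18A1, and is in 42.6% of all windows. The window of the upstream ASS1 start held no E-box. Any part of these motifs in the values was not tested. A match describes letters only, and factor binding was not measured.

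**Figure D1:**
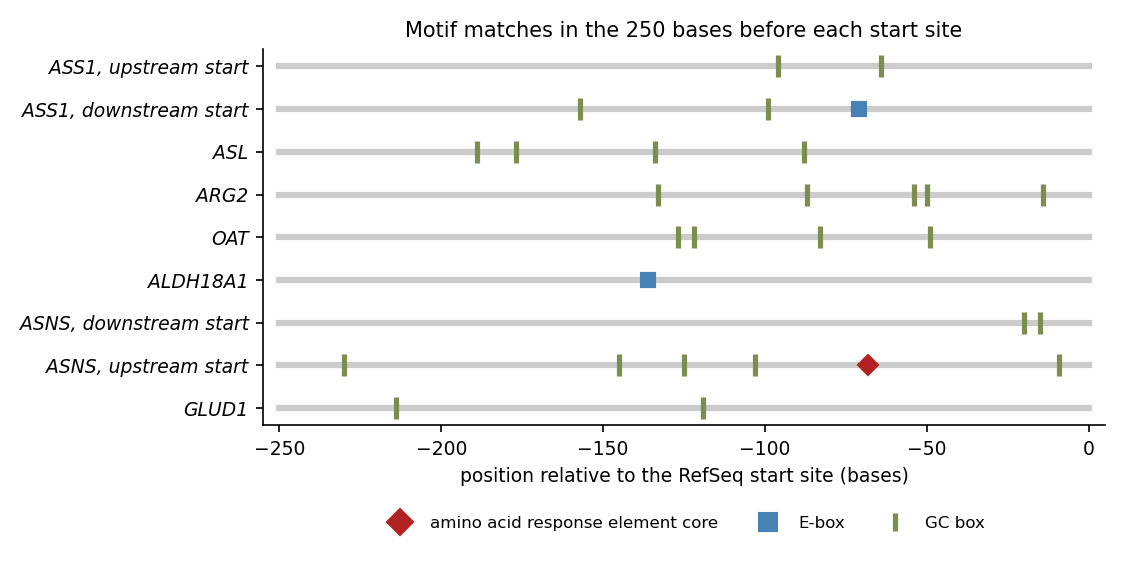
Matches to 3 motifs in the 250 bases before each RefSeq start site (horizontal axis, position in bases relative to the start) of 7 members, 1 row per start. The response element core appears once, at -68 in ASNS, and the E-box at -71 in ASS1 and -136 in ALDH18A1.

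In the libraries as a whole, the gene rows of the control, oxamate and oxamate+lactate libraries summed to 8220199, 8821115 and 8171633 normalized counts, with an unknown read depth. Over 18 ERCC spike-in RNAs (mean of 100 or more) the log2 ratios had an SD of 0.13 for oxamate against control. The SD was 0.11 for oxamate+lactate against oxamate and 0.19 for oxamate+lactate against control. The ERCC medians were 0, -0.08 and -0.08 in the same order. The SD covers steps after the spike-in was added but no spread between cultures. All log2 ratios are on the log2(value + 1) scale, and "all genes" means the 12292 with a mean of at least 50. Their median log2 ratio was 0.08, -0.09 and -0.01 in the same order. Scaling the libraries to equal totals moves the first by -0.10 and the second by 0.11. All 8 listed T-lineage markers were found, with sums of 13733, 16102 and 14277 in the same order of libraries. Among them CD28 had 3, 66 and 20, with a mean under 50, so it was nearly absent in control. Of 7 markers of other blood lineages the 1 analysed here (NCAM1) had 33, 19 and 22. The part of these shifts in the results below was not tested.

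ASS1 had 3011 normalized counts in control, 439 with oxamate and 859 with oxamate and lactate. Control was far above both treated libraries, and the library with lactate lay between the others. The log2 ratio of oxamate against control was -2.78, a 6.85-fold lower value, and that of oxamate+lactate against control was -1.81, 3.50-fold lower. Between the treated libraries ASS1 was 1.95-fold higher with lactate (log2 ratio 0.97). In bulk RNA, fewer cells that express a gene and less RNA per cell cannot be told apart. ASS1 overlaps no other gene in the GENCODE 29 annotation. Of 11 annotated ASS1 processed pseudogenes, which can share reads with it, 1 was analysed here (ASS1P12, with 14, 14 and 21 normalized counts).

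Since ASS1 was chosen for its ratio, its neighbours in that order are given with no test. The order was taken among genes with a mean of at least 50 that also reached at least 100 in a library. There the next lowest log2 ratios of oxamate against control were -2.76 for RP11-284F21.10 (114, 16 and 24 normalized counts in control, oxamate and oxamate+lactate), -2.67 for RP13-580F15.2 (362, 56 and 104) and -2.40 for SPNS3 (1169, 221 and 404). The first of these was measured at much lower values than ASS1.

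ASL, the next enzyme of the route, had 58 normalized counts in control, 60 with oxamate and 72 with oxamate and lactate. These are the lowest values of the 8 members and lie close to the floor of 50. For ASL the log2 ratio of oxamate against control was 0.05, and it turned negative with equal totals or once centred on the all-gene median, while that of oxamate+lactate against oxamate was 0.26. Genes were compared per kilobase of longest transcript, a rough scale because the transcripts expressed here are unknown. Per length, ASS1 was 56.4 times ASL in control, 7.95 times with oxamate and 13.0 times with oxamate and lactate. A quotient within a library does not depend on how the libraries are scaled. The gene span of ASL overlaps that of the coding gene AC068533.4 on the same strand. How any reads shared by these genes were counted is unknown, which limits the ASL values and the quotients with ASS1.

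ASNS had 1327 normalized counts in control, 312 with oxamate and 495 with oxamate and lactate. The order of the libraries was that of ASS1, with control highest and oxamate lowest. ASNS was 4.24-fold lower in oxamate than in control (log2 ratio -2.09) and 2.68-fold lower in oxamate+lactate than in control (-1.42). It was 1.58-fold higher in oxamate+lactate than in oxamate (0.66). Per length, ASNS was 0.698 times GLUD1 in control, 0.200 times with oxamate and 0.331 times with oxamate and lactate. In the annotation the gene span of ASNS overlaps AC079781.5, a noncoding transcript on the same strand, and AC005326.1, a processed pseudogene on the opposite strand. Exons were not compared, so whether they share reads with ASNS is unknown.

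**Figure D2:**
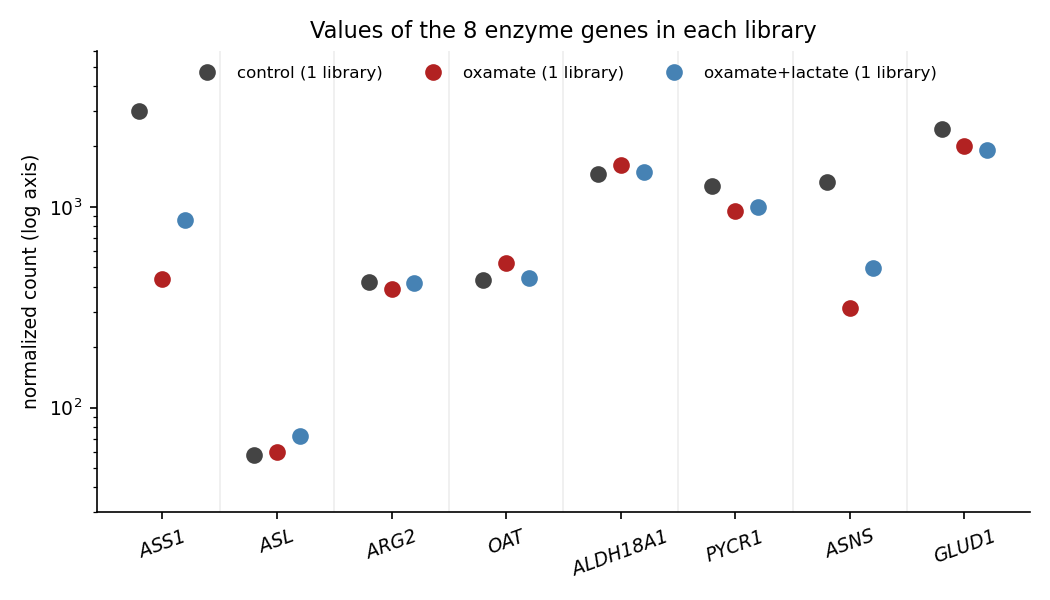
Normalized counts (vertical log axis) of the 8 genes (horizontal axis), 1 point per library, with no error bars because each condition had 1 library. ASS1 is at 3011, 439 and 859 and ASNS at 1327, 312 and 495 (control, oxamate, oxamate+lactate), and the points of the other genes lie close together.

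For oxamate against control, 2 of the 8 members (ASS1 and ASNS) were lower by 1.5-fold or more, against 3.98% of all genes, and the same 2 by 2-fold or more, against 0.879%. This contrast chose ASS1, so nothing is read from that count. None of the 8 was at least 1.5-fold higher, against 7.48% of all genes. With lactate added to oxamate, ASS1 and ASNS were at least 1.5-fold higher, against 0.252% of all genes, and none was 1.5-fold lower, against 0.903%. ASS1 ranked 1 from the top of the 12292 genes in that comparison, and ASNS ranked 16. For oxamate+lactate against control, ASS1 and ASNS were again past 1.5-fold on the lower side (3.07% of all genes) and past 2-fold (0.342%), and none of the 8 was 1.5-fold higher (2.99%). There ASS1 ranked 3 and ASNS 8 from the bottom. The comparisons share libraries (the oxamate library enters both comparisons made with it, and the control library likewise), so they are not independent of each other or of the choice of ASS1.

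The background itself moves with scaling. For oxamate against control, 920 genes were 1.5-fold higher and 489 lower as deposited, and 569 higher and 702 lower with equal totals. For oxamate+lactate against oxamate, 31 were higher and 111 lower as deposited, 78 higher and 42 lower with equal totals, and 56 higher and 68 lower with equal ERCC sums. With equal ERCC sums, oxamate+lactate against control gave 507 higher and 266 lower, against 367 and 377 as deposited. The number of members past 1.5-fold was 2 under each of these scalings in every comparison.

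**Figure D3:**
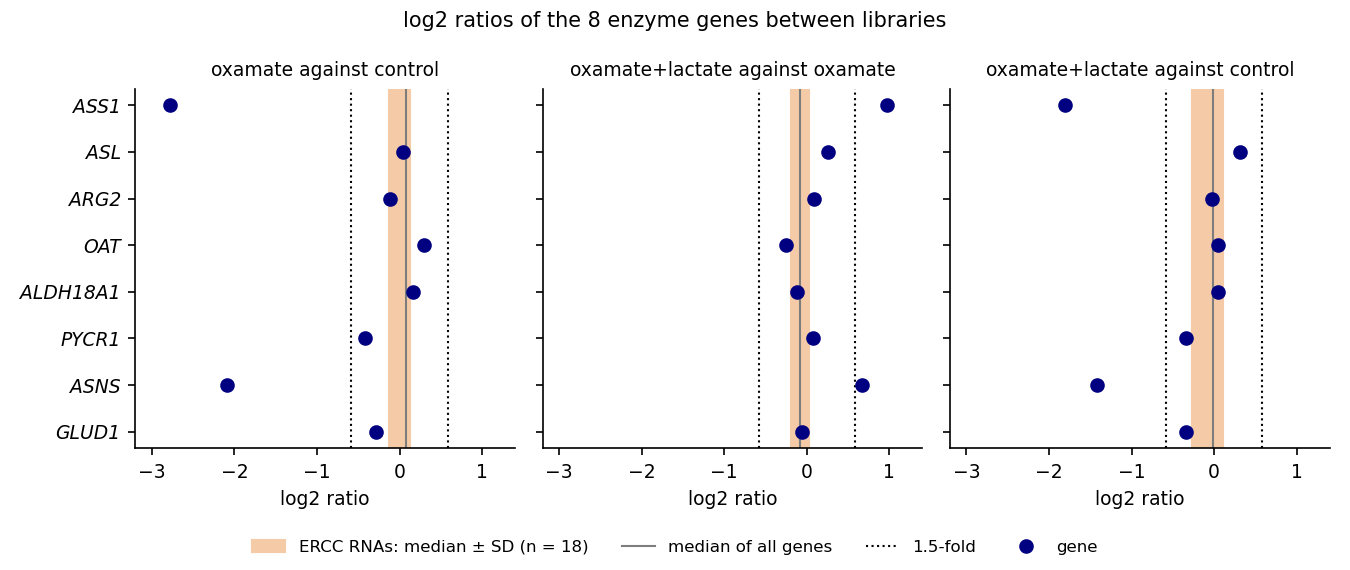
log2 ratios (horizontal axis) of the 8 genes (vertical axis) in the 3 comparisons. The shaded band is the ERCC median ± SD (n = 18 RNAs), the solid line the median of all genes and the dotted lines 1.5-fold. ASS1 (-2.78) and ASNS (-2.09) lie far to the left for oxamate against control and to the right for oxamate+lactate against oxamate (0.97 and 0.66), and the other 6 genes lie within 1.5-fold in each comparison.

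Both ALDH18A1 and PYCR1, which make proline from glutamate, lay within 1.5-fold in each comparison. ALDH18A1 had 1454 normalized counts in control, 1623 with oxamate and 1497 with oxamate and lactate. Its log2 ratio of oxamate against control was 0.16, close to the ERCC SD of 0.13. PYCR1 had 1273, 953 and 1003, with control above both treated libraries. PYCR1 was 1.34-fold lower in oxamate (log2 ratio -0.42) and 1.27-fold lower in oxamate+lactate (-0.34) than in control. The first was the largest difference among the 6 members besides ASS1 and ASNS. It ranked 972 from the bottom of the 12292 genes. Between the treated libraries the log2 ratio of PYCR1 was 0.07, above the ERCC median of -0.08 by more than the ERCC SD of 0.11. That SD holds no spread between cultures, and PYCR1 ranked 2080 from the top of the 12292 genes there. The gene span of PYCR1 overlaps those of MYADML2 and 2 antisense genes. Exons were not compared, so whether they share reads with PYCR1 is unknown. Per length, PYCR1 was 1.54 times ALDH18A1 in control, 1.04 times with oxamate and 1.18 times with oxamate and lactate.

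PYCR1 has a cytosolic paralog, PYCR3 (PYCRL in the table), which had 241 normalized counts in control, 335 with oxamate and 236 with oxamate and lactate. PYCR3 was highest in oxamate, where PYCR1 was lowest. Per length, PYCR1 was 7.43 times PYCR3 in control, 4.0 times with oxamate and 5.98 times with oxamate and lactate.

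ARG2 had 423 normalized counts in control, 392 with oxamate and 416 with oxamate and lactate. Its log2 ratios were -0.11, 0.09 and -0.02 for oxamate against control, oxamate+lactate against oxamate and oxamate+lactate against control. The first and last lay within the ERCC SD of the ERCC median, and the last turned positive with equal ERCC sums. The ratio of 0.09 lay above the ERCC median of -0.08 by more than the ERCC SD of 0.11. ARG2 overlaps VTI1B on the opposite strand. OAT had 430, 527 and 444 normalized counts, with oxamate highest. Its log2 ratio was 0.29 for oxamate against control, -0.25 for oxamate+lactate against oxamate and 0.05 for oxamate+lactate against control. Per length, OAT was 1.02 times ARG2 in control, 1.34 times with oxamate and 1.07 times with oxamate and lactate.

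GLUD1 had 2451 normalized counts in control, 2008 with oxamate and 1928 with oxamate and lactate. Both treated libraries were below control and close to each other. GLUD1 was 1.22-fold lower in oxamate (log2 ratio -0.29) and 1.27-fold lower in oxamate+lactate (-0.35) than in control. The difference of -0.06 between the treated libraries was within the ERCC SD and turned positive under all 3 other scalings. The near-identical GLUD2 had 25, 27 and 29 normalized counts, and the pseudogenes GLUD1P2 and GLUD1P3 had 11, 9 and 11, and 47, 32 and 36. The counting of reads shared by these copies is unknown, and GLUD1 also overlaps SHLD2 on the opposite strand.

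The order of the members by level differed between libraries. Per kilobase of longest transcript, ASS1 was highest in control at 1526 normalized counts, followed by GLUD1 at 807, PYCR1 at 669, ASNS at 563, ALDH18A1 at 433, OAT at 210, ARG2 at 207 and ASL at 27.1. In oxamate the order was GLUD1 at 661, PYCR1 at 501, ALDH18A1 at 483, OAT at 257, ASS1 at 223, ARG2 at 192, ASNS at 132 and ASL at 28.0. In oxamate+lactate it was GLUD1 at 634, PYCR1 at 527, ALDH18A1 at 446, ASS1 at 435, OAT at 217, ASNS at 210, ARG2 at 203 and ASL at 33.6. ASS1 was thus the highest member in control, lay between OAT and ARG2 in oxamate, and lay between ALDH18A1 and OAT in oxamate+lactate. With 1 library each, the order of close neighbours such as OAT and ARG2 in control, or ALDH18A1 and ASS1 in oxamate+lactate, has no replicate check. The transcripts behind these lengths had a GC content of 57.4% for ASS1 and 47.0% for ASNS, against a median of 48.2% over the 10736 genes that could be matched, and the part of base composition in the ratios was not tested.

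Genes most like each member were taken by the distance over 2 log2 ratios, those of the treated libraries against control. For ASS1 the nearest 5 were RP13-580F15.2 (distance 0.11), RP11-284F21.10 (0.39), SPNS3 (0.47), ATF5 (0.71) and ARRDC3 (0.71), and 1 gene lay within 0.25. For ASNS the nearest were ATF5 (0.15), a transcription factor of the ATF4 branch with 3713, 859 and 1252 normalized counts, and AARD (0.23; 104, 28 and 38). The choice of ASS1 for the lowest ratio of oxamate to control, which enters this distance, by itself leaves it few neighbours, so nothing is read from their number. For the other members the nearest 2 lay within 0.02, and 1334 (ASL) to 5002 (ALDH18A1) genes lay within 0.25. The nearest to PYCR1 were GHITM and TATDN1, and those to GLUD1 were TOMM20 and TMEM260. The nearest to ASL were SOCS6 and C19orf68, to ARG2 FHDC1 and SNW1, to OAT LSM14B and RP11-96L14.7, and to ALDH18A1 EXOC3 and EPM2A.

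**Figure D4:**
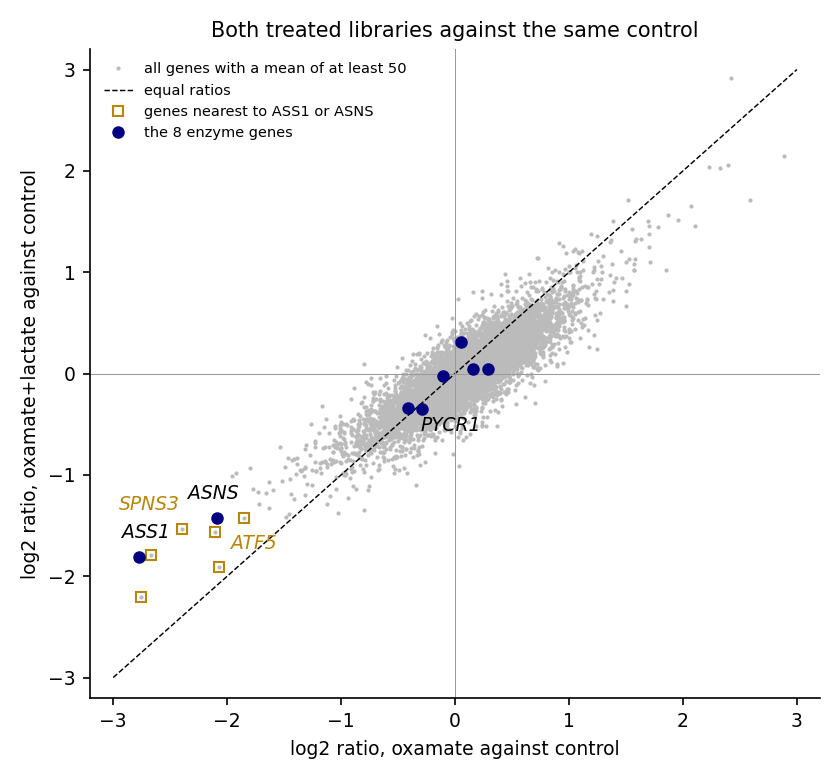
log2 ratio of oxamate against control (horizontal axis) and of oxamate+lactate against control (vertical axis) for all 12292 genes (grey), the 8 members (filled) and the genes nearest to ASS1 or ASNS (squares). Both axes use the same control library, which by itself draws points along the diagonal. ASS1 (-2.78, -1.81) and ASNS (-2.09, -1.42) lie at the lower left, above the line of equal ratios.

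Other enzymes of these pathways were taken from 5 lists of 49 genes, of which 31 had a mean of at least 50. In oxamate against control, 3 of the 31 were past 1.5-fold on the higher side and 2 on the lower side, near the 7.48% and 3.98% of all genes, and their median log2 ratio was -0.01, against 0.08 for all genes. For oxamate+lactate against oxamate none was higher and 1 lower (median -0.05, all genes -0.09), and against control none was past 1.5-fold in either direction (median -0.08, all genes -0.01).

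Among 5 arginine and urea cycle genes, GATM, which makes the creatine precursor guanidinoacetate from arginine, had 54 normalized counts in control, 101 with oxamate and 74 with oxamate and lactate (log2 ratio of oxamate against control 0.89). The lowest, GAMT, the next enzyme of creatine synthesis, had 323, 312 and 322 (-0.05), and SLC25A15, the mitochondrial ornithine carrier, had 423, 421 and 393. Among 4 proline genes, PEPD, the peptidase that releases proline from dipeptides, had 367, 563 and 484 (0.62), and P4HA1, a subunit of prolyl hydroxylase, had 263, 199 and 229 (-0.40). In GENCODE 29, several neighbouring genes named here overlap other coding genes: SLC25A12, GLS2, ATF5 and DDIT3.

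Among 8 asparagine and aspartate genes, SLC25A12, a mitochondrial carrier that exchanges aspartate for glutamate, was the lowest in oxamate, with 306, 188 and 208 normalized counts (-0.70). GOT1, the cytosolic aspartate aminotransferase, was the highest, with 246, 307 and 336 (0.32), while its mitochondrial counterpart GOT2 had 1999, 1657 and 1607 (-0.27). Among 7 glutamine and glutamate genes, GPT2, the mitochondrial alanine aminotransferase, had 1332, 761 and 976 (-0.81). GLS2, a glutaminase, had 54, 98 and 65 (0.85) and was the 1 gene at least 1.5-fold lower with lactate added (-0.58). That ratio lies exactly at the threshold. The mean of GLS2 (72.3), like that of GATM (76.3), is close to the floor of 50. GLUL, glutamine synthetase, had 2396, 2581 and 2570 (0.11). None of 7 glutamine amidotransferases, which like ASNS take nitrogen from glutamine, was past 1.5-fold. They ranged in oxamate from GFPT1 of hexosamine synthesis (1066, 823 and 895; -0.37) to CAD of pyrimidine synthesis (2310, 3174 and 2544; 0.46).

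**Figure D5:**
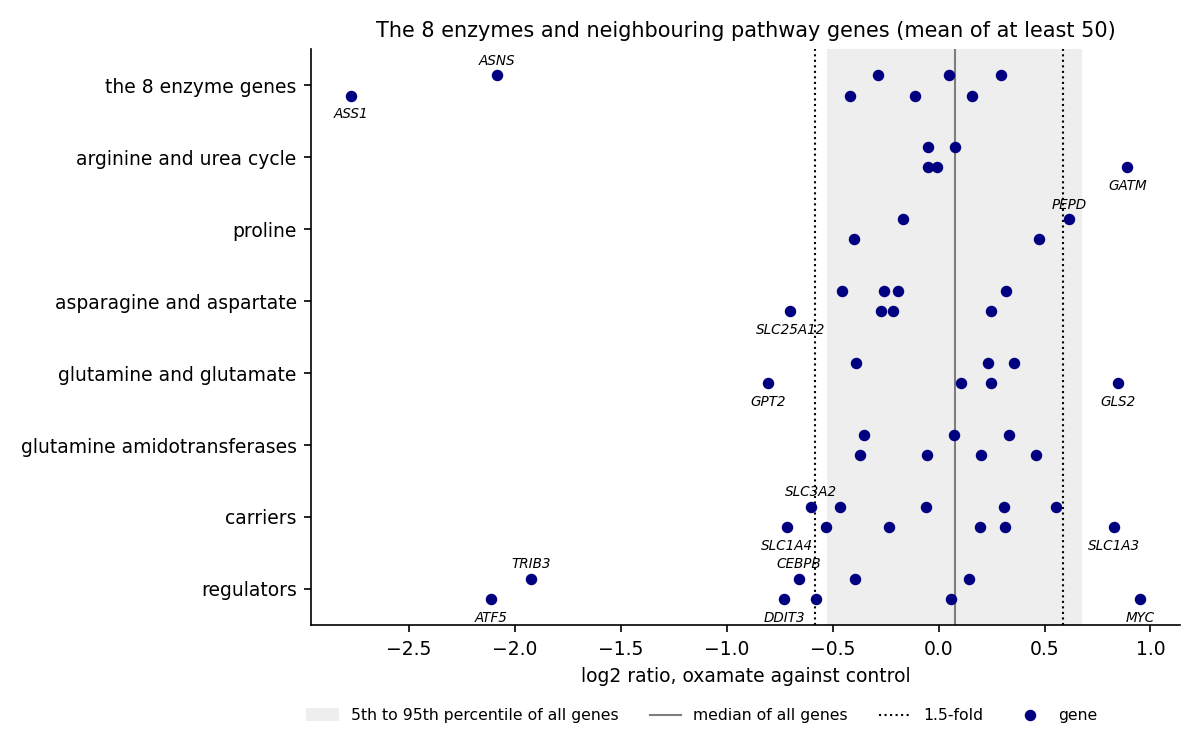
log2 ratio of oxamate against control (horizontal axis) for the 8 members and for genes of 7 neighbouring lists with a mean of at least 50 (rows, 1 point per gene). The shaded band spans the 5th to the 95th percentile of all genes (-0.52 to 0.67), the solid line is their median and dotted lines mark 1.5-fold. ASS1 and ASNS lie far from the band, as do ATF5 and TRIB3 among the regulators, while most enzymes lie inside it.

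Of 11 plasma membrane carriers of these amino acids, 2 were past 1.5-fold on the lower side and 1 on the higher side in oxamate against control, against 3.98% and 7.48% of all genes (median log2 ratio -0.06, all genes 0.08). SLC1A4, a carrier of neutral amino acids, had 1016, 618 and 718 normalized counts (-0.72), and SLC3A2, the heavy chain of several exchangers, had 4432, 2915 and 3434 (-0.60). SLC1A3, an aspartate and glutamate carrier, had 43, 77 and 67 (0.83), close to the floor of 50. SLC7A1, the main arginine carrier, had 4975, 4227 and 4178 (-0.24). Of 9 regulators, 4 were at least 1.5-fold lower and 1 higher in oxamate, against 3.98% and 7.48% of all genes. Their median log2 ratio was -0.58, against 0.08 for all genes. This list too was chosen with earlier results of these data known, so these values are a description. ATF4 itself had 4690, 3570 and 3586 (-0.39), its partner CEBPB 581, 367 and 517 (-0.66), its target DDIT3, which encodes CHOP, 226, 136 and 144 (-0.73) and the pseudokinase gene TRIB3 2282, 601 and 1159 (-1.92). Between the treated libraries the log2 ratio was 0.01 for ATF4, 0.08 for DDIT3 and 0.36 for CEBPG. It was 0.49 for CEBPB, 0.54 for ATF5 and 0.95 for TRIB3, beside 0.97 for ASS1 and 0.66 for ASNS. The rest of the 9 regulators had negative ratios there: -0.43 for MYC, -0.17 for EIF2AK4 and -0.14 for HIF1A. The part of these regulators in the values of ASS1 and ASNS was not tested. MYC had 2739, 5299 and 3922 (0.95) and was the 1 regulator at least 1.5-fold higher, while HIF1A (734, 811 and 738; 0.14) and EIF2AK4 (971, 1010 and 895; 0.06) were within 1.5-fold. With lactate added, TRIB3 was the 1 regulator at least 1.5-fold higher (0.95).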

How the data were processed

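The authors deposited 1 table of normalized counts, which hold only whole numbers and were treated here as a score, with 17365 rows (36 of them ERCC spike-in RNAs) and 3 columns, 1 per library. The submitters' processing notes list FastQC 0.11.9, STAR 2.7.1a, HTSeq 0.11.2 and hg19 without saying what each was used for. How genes were filtered, normalized and rounded, and with which annotation, is not stated, so depth is unknown, no count model was fitted and a factor shared by a library shifts all its ratios. Per the labels' protocols, ERCC RNA was added to RNA from equal numbers of cells, and the kit does not mark strand.

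Ratios were computed with Python 3.11.15 and pandas 2.3.3 as log2((value + 1)/(value + 1)), over 12292 genes with a mean of at least 50, and were tested on simulated data. With 1 library per condition, passing 1.5-fold or 2-fold takes the place of a call. Alternatives were pseudocounts of 0.5 and 10, other floors, equal totals, equal ERCC sums and centring on the median of all genes. Lengths, GC content and overlaps came from GENCODE 29 by name, and promoters from RefSeq (GRCh38.p14). Overlaps are of whole gene spans, and exons were not compared. Genes named from each list were those with the highest and lowest oxamate ratio and those past 1.5-fold, with 5 genes nearest to ASS1 and 2 to each other member. Others named for their function, such as GLUL, GOT2, SLC25A15, SLC7A1, ATF4, CEBPG, HIF1A and EIF2AK4, were added after their values were seen. Some listed genes are not reported here and enter no list count or median. The members and lists were chosen with earlier results of these data known.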

Additional observations from a re-analysis of the deposited data

How the results depend on the processing

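No paired analysis was possible because each condition had 1 library. The 120 recomputed log2 ratios of the 8 members, under other pseudocounts and scalings, all stayed within the ERCC SD of the values as deposited. Each scaling shifts all members by almost the same amount, so these are not 120 separate checks. For oxamate against control, ASS1 ranged from -2.88 to -2.75 and ASNS from -2.19 to -2.05, and for oxamate+lactate against oxamate they ranged from 0.95 to 1.08 and from 0.65 to 0.77. Of 24 ratios, 3 changed sign, all of them small (ASL, ARG2 and GLUD1, as given in the text). The number of members at least 2-fold higher in oxamate+lactate than in oxamate was 0 as deposited and 1 (ASS1) with equal totals, equal ERCC sums or relative to the median of all genes. Of 84 recomputed counts over all genes, 39 differed by over 1.5 times or changed between 0 and another number. They include the counts under other floors, where the number of genes counted changes too. Genes 1.5-fold higher in oxamate+lactate than in oxamate numbered 31 as deposited, 20 with a pseudocount of 10, 66 relative to the median, 663 with a floor of 1 and 8 with a floor of 200. For oxamate against control, a floor of 1 gave 2154 higher and 1632 lower, and a floor of 200 gave 493 and 161. The unknown depth leaves the counting error of low members, ASL above all, unmeasured.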
